A study of Homo sapiens with 32 samples.

Results

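Transcripts of 10 human genes for mitochondrial chaperones and proteases were followed through ER stress and knockdown of MOCOS in a pair of prostate cancer cell lines. The genes were taken by symbol: HSPD1, HSPE1, HSPA9, GRPEL1, DNAJA3 and TRAP1 for the chaperones and their helpers, and LONP1, CLPP, YME1L1 and HTRA2 for the proteases. All 10 were found among the 29744 genes of the authors' table, and all 10 passed the filter on low counts in both lines.

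Polyadenylated RNA was sequenced from LNCaP, an established line from a prostate cancer lymph node metastasis that grows in response to androgen, and from C4-2B, its castration-resistant descendant. There were 32 libraries in 8 groups of 4. In each line the groups were siMOCOS cells with thapsigargin (TG), siMOCOS cells without TG, siCTRL cells with TG, and siCTRL cells without TG. siMOCOS is an siRNA against MOCOS, the sulfurase that completes the molybdenum cofactor of xanthine dehydrogenase and aldehyde oxidase, and siCTRL is the control siRNA that every other culture received. TG is an inhibitor of the calcium pump of the ER and so a standard inducer of ER stress. Cells without TG were given vehicle, per the series' description. No source used here gives the concentration or duration of TG. By the sample titles each knockdown group of 4 holds 2 libraries of each of 2 siRNAs against MOCOS, but the knockdown columns of the table do not say which is which. The replicates are described as biological, and each line is a single cell line. P-values therefore refer to the spread between cultures. That spread was estimated over all groups of a fit together. Any difference between the siRNAs thus enters every comparison, also those between siCTRL groups.

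Most proteins of the mitochondrion are made in the cytosol and threaded in unfolded. HSPA9 (mortalin, the mitochondrial HSP70) pulls them through the inner membrane, with DNAJA3 as a J-domain co-chaperone and GRPEL1 as its nucleotide exchange factor, and the barrel of HSPD1 (HSP60) with its lid HSPE1 (HSP10) then folds many of them. TRAP1 is the HSP90 of mitochondria. LONP1 and CLPP are ATP-dependent proteases of the matrix, YME1L1 is an ATP-dependent protease of the inner membrane that faces the intermembrane space, and HTRA2 is a serine protease of that space. In mammalian cells HSPD1, HSPE1, LONP1 and CLPP are commonly read as markers of the mitochondrial unfolded protein response, which is separate from the unfolded protein response of the ER.

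HSPD1 and HSPE1 lie head to head on chromosome 2, which makes them the pair in which a shared promoter and separate transcript levels can be set side by side. In RefSeq (GRCh38.p14), HSPE1 starts at 197500379 on the plus strand and HSPD1 at 197500274 and 197499840 on the minus strand, which leaves 104 bases between the nearest starts. Promoter entries, from 250 bases before to 50 bases after a start, were found for 7 of the 10 genes, with 10 entries in all. The letters GCGCA, any base and GCGC, which resemble the site of the respiratory-gene activator NRF1, were searched on both strands. They are held by 5.78% of the 35116 promoter entries in the table. Counted by gene and not by entry, 4 of the 7 hold them, which is not directly comparable with that share. These are HSPD1, HSPE1, LONP1 and DNAJA3, where HSPD1 and HSPE1 share 1 match. The windows below show that match, the match of LONP1, 2 of the 3 matches of DNAJA3, and the heat shock element of HSPD1, each 30 bases long, 5′ to 3′ on the strand given, with the matching letters in capitals.
HSPD1-HSPE1, NRF1-type letters, chr2:197500322-197500351, plus strand: tggggcgagcGCGCCTGCGCgctgggtgat
LONP1, NRF1-type letters, chr19:5720633-5720662, minus strand: ctgaagccctGCGCATGCGCatcaatgagt
DNAJA3, NRF1-type letters, chr16:4425774-4425803, plus strand: gtacggtGCGCCTGCGCGTGCGCgacgcat
HSPD1, heat shock element, chr2:197500061-197500090, minus strand: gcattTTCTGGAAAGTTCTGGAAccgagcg
The capitals of DNAJA3 are 2 overlapping matches, and the match nearest to the start is not shown. The heat shock element begins 245 bases before the HSPD1 start at 197499840 and 294 bases from the HSPE1 start. It lies downstream of the other HSPD1 start, at 197500274, and so outside the 104 bases between the nearest starts. Its capitals are the units TTC, GAA, TTC and GAA, with 2 bases of any kind between neighbours. The shorter order TTC, GAA and TTC, spaced in the same way, is held by 0.49% of all promoters on either strand. The share that holds the full stretch was not counted. The letters TGATGNAA of the ATF4-CHOP composite site, and CCAAT and CCACG with 9 bases between them (the ER stress response element), were in the promoter entries of 0 of these 7 genes, against 3.62% and 0.0769% of all promoters. Letters this rare are likely to be missing from so few entries, so the 0 does not set these genes apart. All of the above are letter matches in fixed windows and say nothing of binding.

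In GENCODE v29 (GRCh38) the other 8 genes are spread over 6 chromosomes. HSPA9 lies at chr5:138553756-138575724 (minus strand), GRPEL1 at chr4:7058906-7068197 (minus), DNAJA3 at chr16:4425805-4456775 (plus) and TRAP1 at chr16:3651639-3717597 (minus). Of the proteases, LONP1 lies at chr19:5691834-5720572 (minus), CLPP at chr19:6361452-6368910 (plus), YME1L1 at chr10:27110112-27155266 (minus) and HTRA2 at chr2:74529377-74533348 (plus). Protein-coding genes on the opposite strand overlap TRAP1 (DNASE1, 28505 bases), HTRA2 (AUP1 and LOXL3, 563 and 935 bases), YME1L1 (MASTL, 443 bases) and LONP1 (RPL36, 43 bases). Values refer to whole genes, not to exons or isoforms.

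Library totals ran from 7.51 to 27.1 M counts. MOCOS, the targeted gene, averaged 14.3 ± 4.11 CPM (counts scaled to library size with TMM factors) in LNCaP siMOCOS cells with TG and 96.1 ± 5.13 CPM in siCTRL cells with TG (SD, n = 4 each). Without TG it averaged 3.76 ± 0.299 CPM in LNCaP siMOCOS cells and 24.3 ± 0.668 CPM in siCTRL cells. In C4-2B the averages were 14.8 ± 4.37 CPM in siMOCOS cells with TG against 89.4 ± 2.68 CPM in siCTRL cells with TG, and 3.42 ± 1.05 CPM in siMOCOS cells without TG against 31.5 ± 2.05 CPM in siCTRL cells without TG. Knockdown and control libraries did not overlap in either line, with or without TG. All 10 prostate epithelial markers checked were above 1 CPM in every library. Their summed level was 2660 to 3130 CPM in LNCaP siMOCOS cells with TG, 5600 to 7350 CPM in siMOCOS cells, 2540 to 2810 CPM in siCTRL cells with TG and 5570 to 6060 CPM in siCTRL cells. In C4-2B it was 1870 to 2190, 3510 to 4620, 1670 to 1820 and 2750 to 2920 CPM in the same groups. Of 14 markers of immune, stromal, endothelial and blood cells, 12 were in the table and 4 passed 1 CPM in any library. The sum of the 12 was 25.9 to 34.9 CPM in LNCaP siMOCOS cells with TG, 15.6 to 25.5 CPM in siMOCOS cells, 16.6 to 22.4 CPM in siCTRL cells with TG and 11.5 to 15.2 CPM in siCTRL cells. In C4-2B it was 20.1 to 29.9, 12.9 to 15, 14.7 to 22.6 and 6.02 to 11.3 CPM in the same groups. COL1A1 ranged from 3.07 to 21.4 CPM, CD68 from 1.16 to 9.41 CPM and VWF from 0.914 to 9.01 CPM over the 32 libraries. VWF was higher with TG in siCTRL cells (log2 1.37, adjusted p = 4.02e-05 in LNCaP, and log2 2.30, adjusted p = 1.87e-06 in C4-2B), as was COL1A1 (log2 1.02, adjusted p = 0.000184, and log2 1.11, adjusted p = 0.00511). With knockdown and no TG, VWF (log2 1.02, adjusted p = 0.00425, and log2 1.26, adjusted p = 0.00187) and COL3A1 (log2 1.42, adjusted p = 0.00367, and log2 1.78, adjusted p = 0.007) were higher in the same lines. CD68 was lower with TG in LNCaP siCTRL cells (log2 -0.63, adjusted p = 0.0409). PTPRC, CD3E, PECAM1 and CDH5 peaked at 0.0999, 0.0985, 0.076 and 0.0526 CPM. The part of these sums in the results was not tested.

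TG moved these transcripts in different directions. HSPA9 and YME1L1 were higher with TG in all 4 comparisons, siMOCOS and siCTRL cells of each line, and HSPE1, GRPEL1 and TRAP1 were lower in all 4. HSPD1 and HTRA2 were called in none of the 4. Calls rest on an adjusted p under 0.05 (edgeR quasi-likelihood test, Benjamini-Hochberg over all genes). By that rule, in siCTRL cells, 3 of the 10 were higher with TG and 3 lower in LNCaP, where 49.7% of all 13806 genes were called, 24.6% higher and 25.1% lower. In C4-2B 2 were higher and 4 lower, where 40.5% of 14127 genes were called, 21.2% higher and 19.3% lower. In siMOCOS cells 4 were higher and 3 lower in LNCaP, against 47% of all genes called (25.1% higher, 21.9% lower). Among C4-2B siMOCOS cells 2 were higher and 3 lower, against 37.9% of all genes (20.7% higher, 17.2% lower). With so many genes called, 6 or 7 of 10 in LNCaP and 5 or 6 of 10 in C4-2B are not far from the share among all genes. The median log2 change of the 10 in siCTRL cells was -0.11 in LNCaP and -0.18 in C4-2B, beside -0.04 and -0.01 over all genes tested. CPM are relative to the library, and in bulk RNA a lower level per cell and fewer cells with the transcript cannot be told apart. The siMOCOS and siCTRL comparisons of TG set different libraries against each other. Within a line they come from the same fit, with a shared filter and spread estimate, so they are not independent repeats. Each TG comparison also shares its libraries with the knockdown comparisons below.

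**Figure D1:**
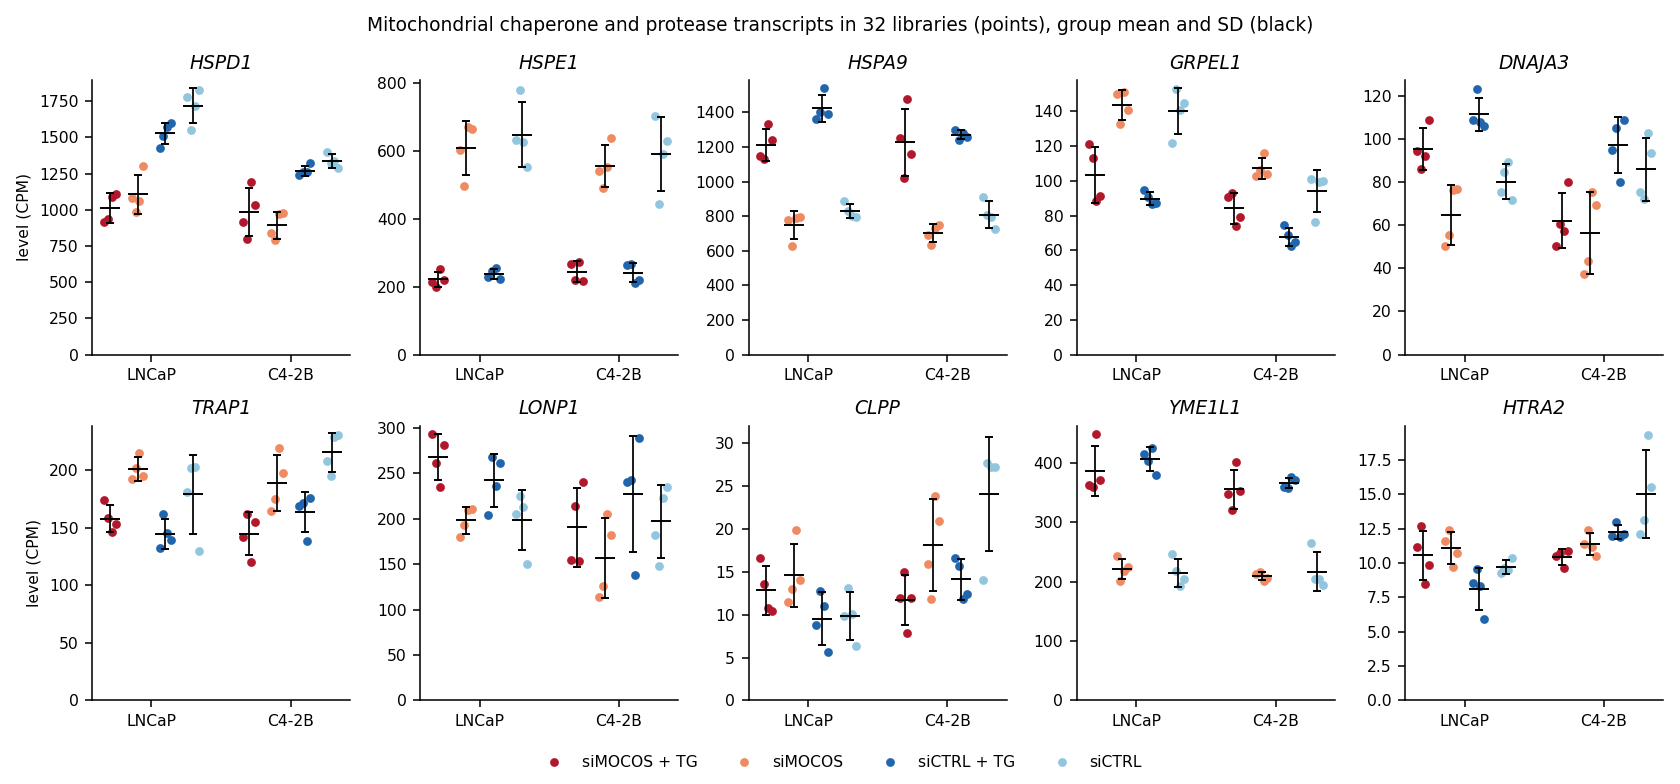
Levels of the 10 transcripts in CPM, 1 point per library, in the 4 groups of LNCaP (left in each panel) and C4-2B (right), with the group mean and SD in black. HSPE1 separates by TG alone, with 200 to 274 CPM in every library with TG and 443 to 779 CPM in every library without it, while HSPD1 separates by siRNA within each line and treatment.

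HSPE1, the lid of the chaperonin, fell the most of the 10. The 4 LNCaP siCTRL libraries with TG held 228, 247, 254 and 223 CPM, against 633, 779, 627 and 553 CPM in siCTRL cells without TG. C4-2B libraries held 263, 266, 212 and 221 CPM in siCTRL cells with TG, against 703, 443, 591 and 628 CPM without TG. Over all genes, siCTRL groups with and without TG lay apart, in either direction, for 49.4% in LNCaP and 40.4% in C4-2B. For HSPE1, no library with TG reached the lowest library without it in either line. The log2 change was -1.44 (SE 0.118, adjusted p = 2.14e-08) in LNCaP, which is 0.368 times the level without TG, and -1.30 (SE 0.141, adjusted p = 1.99e-06) in C4-2B, or 0.406 times. In siMOCOS cells it was -1.40 (adjusted p = 3.05e-08) in LNCaP and -1.15 (adjusted p = 6.6e-06) in C4-2B. Knockdown itself left HSPE1 without a call, with log2 changes without TG of -0.11 (SE 0.115) in LNCaP and -0.10 (SE 0.139) in C4-2B.

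HSPD1, the barrel that HSPE1 caps, fell with knockdown and was not called with TG. In LNCaP without TG the siMOCOS libraries held 1080, 984, 1060 and 1300 CPM, against 1780, 1550, 1720 and 1830 CPM in siCTRL libraries. In C4-2B without TG the siMOCOS libraries held 839, 790, 969 and 975 CPM, against 1400, 1320, 1340 and 1290 CPM in siCTRL libraries. Without TG, siMOCOS and siCTRL ranges did not overlap for 21.5% of all genes in LNCaP and 22.5% in C4-2B. Those of HSPD1 did not overlap in either line. The log2 change was -0.66 (SE 0.0992, adjusted p = 0.00022) in LNCaP and -0.59 (SE 0.113, adjusted p = 0.00133) in C4-2B. Among cells with TG, LNCaP siMOCOS libraries held 914, 935, 1090 and 1110 CPM, against 1430, 1510, 1570 and 1600 CPM in siCTRL libraries, a log2 change of -0.57 (SE 0.0991, adjusted p = 0.000592). C4-2B siMOCOS libraries with TG held 915, 799, 1190 and 1030 CPM, against 1240, 1260, 1260 and 1320 CPM in siCTRL libraries with TG, a log2 change of -0.34 (SE 0.112, adjusted p = 0.0432). For that last difference the highest siMOCOS library stayed below the lowest siCTRL library, where 21% of all genes lay apart in either direction. The call was lost without any 1 of 10 libraries (siCTRL 1 or 3, siCTRL with TG 1, 2, 3 or 4, siMOCOS with TG 1, 2 or 4, or siMOCOS 3), with an adjusted p of up to 0.114. It was also lost with knockdown columns 3 and 4 alone (adjusted p = 0.287).

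Across TG, the log2 change of HSPD1 in siCTRL cells was -0.17 (SE 0.0988, adjusted p = 0.166) in LNCaP and -0.08 (SE 0.112, adjusted p = 0.617) in C4-2B. In siMOCOS cells it was -0.08 (SE 0.0988) in LNCaP and 0.17 (SE 0.112) in C4-2B. A correction for GC content and transcript length, added after the data were seen, brought the LNCaP siCTRL change to -0.28 and past the threshold (adjusted p = 0.0157). The ratio of HSPE1 to HSPD1 counts in a library, a description with no test, differed in its mean between the 4 groups of each line. In LNCaP it averaged 0.221 ± 0.0173 in siMOCOS cells with TG, 0.551 ± 0.0585 in siMOCOS cells, 0.156 ± 0.0109 in siCTRL cells with TG and 0.382 ± 0.0849 in siCTRL cells. In C4-2B the averages were 0.252 ± 0.0388, 0.623 ± 0.0383, 0.19 ± 0.0251 and 0.442 ± 0.075 in the same groups. The ratio was lower with TG than without it in every library of the same siRNA. In C4-2B with TG, siMOCOS libraries (0.21 to 0.293) and siCTRL libraries (0.168 to 0.212) overlapped in this ratio. Per kilobase of the principal GENCODE transcript, HSPE1 and HSPD1 stood at 251 ± 15.5 and 622 ± 30.1 CPM per kilobase in LNCaP siCTRL cells with TG, and at 682 ± 99.5 and 700 ± 49.1 CPM per kilobase in siCTRL cells without TG.

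**Figure D2:**
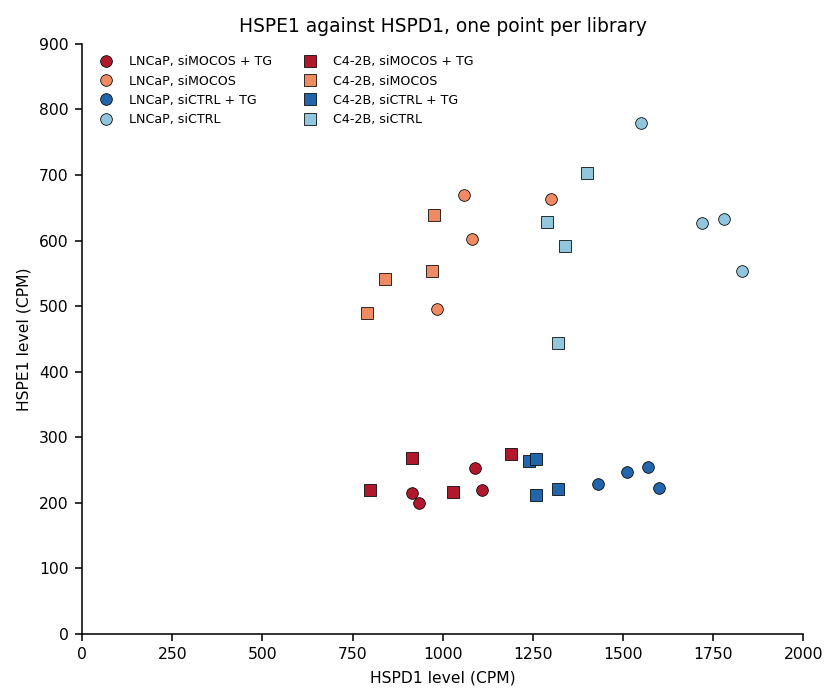
HSPE1 level against HSPD1 level, both in CPM, 1 point per library, with circles for LNCaP and squares for C4-2B. TG libraries lie in a low band of HSPE1, and within each line the siMOCOS libraries lie left of the siCTRL libraries of the same treatment.

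Reads of this pair carry some limits. GENCODE v29 places HSPE1 from 197499994 to 197503457 inside the span of HSPD1 on the opposite strand, and whether counting used the strand is not stated. The annotation also names 17 pseudogenes of HSPD1 and 26 of HSPE1, none of which has a row in the table, so reads shared with them cannot be told apart. The readthrough row HSPE1-MOB4 was low, with -1.42 (SE 0.785, adjusted p = 0.14) and -1.59 (SE 0.796, adjusted p = 0.117) as its log2 change with TG in LNCaP and C4-2B siCTRL cells.

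HSPA9, the motor of import, rose with TG. LNCaP siCTRL libraries with TG held 1360, 1400, 1540 and 1390 CPM, against 885, 832, 800 and 797 CPM without TG. In C4-2B siCTRL cells with TG they held 1300, 1240, 1280 and 1260 CPM, against 911, 807, 795 and 724 CPM without TG. The groups were apart in both lines, with log2 changes of 0.78 (SE 0.0898, adjusted p = 1.3e-06) in LNCaP and 0.65 (SE 0.11, adjusted p = 0.000187) in C4-2B. In siMOCOS cells the changes were 0.74 (adjusted p = 2.48e-06) in LNCaP and 0.84 (adjusted p = 1.45e-05) in C4-2B.

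GRPEL1, which releases ADP from HSPA9, fell with TG as HSPA9 rose. LNCaP siCTRL libraries with TG held 94.7, 90.5, 86.6 and 87 CPM, against 122, 153, 141 and 145 CPM without TG. In C4-2B siCTRL cells with TG it held 74.5, 69.1, 62.3 and 64.8 CPM, against 101, 76.1, 99.5 and 100 CPM without TG. The groups did not overlap, though in C4-2B the lowest library without TG lay close to the highest with it. The log2 changes were -0.64 (SE 0.104, adjusted p = 6.2e-05) in LNCaP and -0.48 (SE 0.12, adjusted p = 0.00391) in C4-2B. In siMOCOS cells they were -0.43 (adjusted p = 0.00253) in LNCaP and -0.31 (adjusted p = 0.0474) in C4-2B. The C4-2B value in siMOCOS cells was lost in 12 of 25 alternative settings. These include leaving out siCTRL 3, siCTRL with TG 1, 2 or 4, siMOCOS with TG 3 or 4, or any 1 siMOCOS library (adjusted p up to 0.131). It came to -0.15 (adjusted p = 0.519) with knockdown columns 1 and 2 alone. The LNCaP value was lost there as well (-0.26, adjusted p = 0.0837). The count ratio of GRPEL1 to HSPA9 averaged 0.0633 ± 0.00554 in LNCaP siCTRL cells with TG against 0.17 ± 0.0216 without TG, and 0.0532 ± 0.004 against 0.117 ± 0.0191 in C4-2B. GRPEL2, the second mitochondrial exchange factor and the paralog of GRPEL1, was higher with TG. It averaged 196 CPM in LNCaP siCTRL cells with TG against 72.5 CPM without TG (log2 1.44, adjusted p = 1.32e-05), and 167 against 66.6 CPM in C4-2B (log2 1.32, adjusted p = 0.000681).

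DNAJA3, a J-domain partner of HSPA9, was called with TG in LNCaP. Its LNCaP siCTRL libraries held 109, 123, 108 and 106 CPM with TG, against 75.5, 84.6, 89.2 and 71.9 CPM without TG, 0.48 on the log2 scale (SE 0.135, adjusted p = 0.00686). In LNCaP siMOCOS cells the change was 0.61 (adjusted p = 0.0013). In C4-2B the changes were 0.18 (SE 0.21, adjusted p = 0.522) in siCTRL cells and 0.17 (SE 0.21, adjusted p = 0.54) in siMOCOS cells. The difference between the lines in the TG response of siCTRL cells, LNCaP minus C4-2B, was itself not called (0.29, SE 0.254, adjusted p = 0.837).

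Knockdown values of DNAJA3 in C4-2B lay at the edge of the threshold. Without TG the siMOCOS libraries held 37.5, 43.2, 75.4 and 69.6 CPM, against 75.5, 72.3, 103 and 93.3 CPM in siCTRL libraries, a log2 change of -0.62 (SE 0.211, adjusted p = 0.0532). With TG the siMOCOS libraries held 50.6, 60.7, 57.4 and 80 CPM, against 94.7, 105, 80.3 and 109 CPM in siCTRL libraries, a log2 change of -0.62 (SE 0.21, adjusted p = 0.0522). Columns 1 and 2 lay below columns 3 and 4 without TG, and those numbers cannot be tied to an siRNA here. DESeq2 called both (adjusted p = 0.0244 without TG and 0.0218 with TG), as did limma voom (0.0399 and 0.0438). In LNCaP the changes were -0.33 (adjusted p = 0.106) without TG and -0.20 (adjusted p = 0.287) with TG.

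TRAP1, the mitochondrial HSP90, was lower with TG by a small margin. With TG the LNCaP siCTRL libraries held 132, 162, 145 and 139 CPM, against 181, 202, 203 and 130 CPM without TG. In C4-2B siCTRL cells with TG it held 169, 171, 138 and 176 CPM, against 208, 195, 229 and 230 CPM without TG. The LNCaP groups overlapped through 1 low library without TG, and the C4-2B groups did not overlap. The log2 changes were -0.31 (adjusted p = 0.0386) in LNCaP and -0.40 (adjusted p = 0.0205) in C4-2B, and in siMOCOS cells -0.30 (adjusted p = 0.0436) and -0.35 (adjusted p = 0.042) in the same lines. The LNCaP call in siCTRL cells was lost in 16 of 25 alternative settings, among them leaving out siCTRL 1, 2 or 3 or any 1 library with TG (adjusted p up to 0.194). The C4-2B call in siCTRL cells was lost without siCTRL 4 (adjusted p = 0.0816) or siCTRL with TG 3 (0.0631). In siMOCOS cells it was lost in 9 settings in LNCaP and 6 in C4-2B, with -0.12 (adjusted p = 0.619) in C4-2B with knockdown columns 1 and 2 alone.

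**Figure D3:**
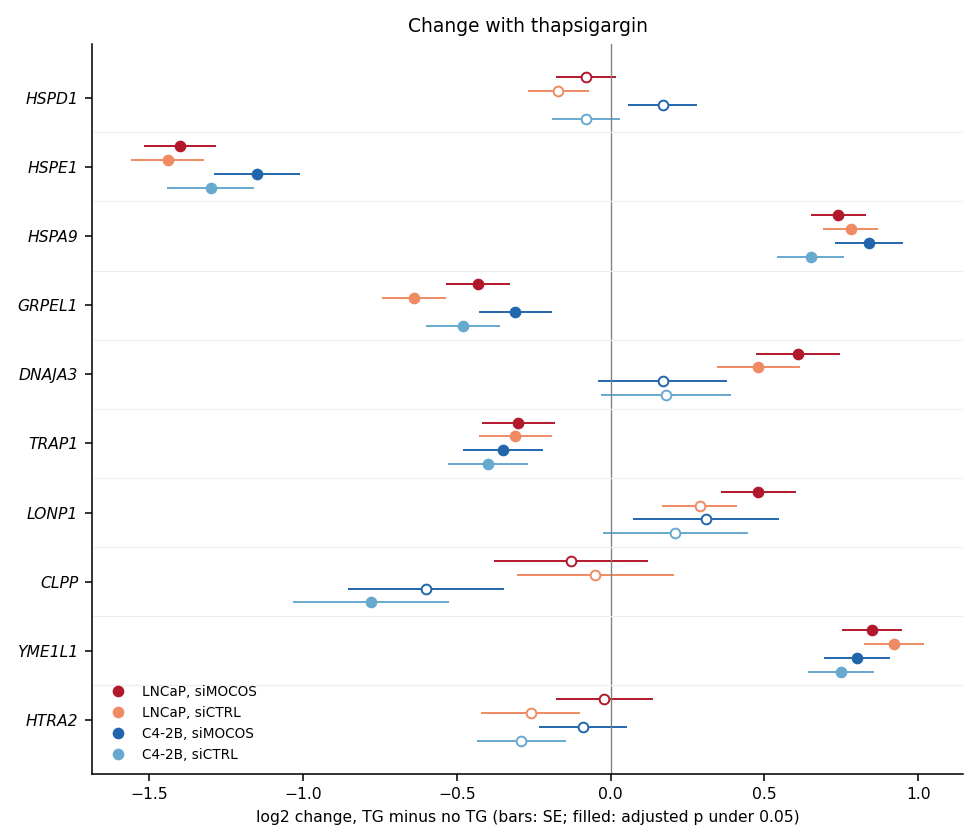
Log2 change with TG (TG minus no TG) of the 10 genes in siMOCOS and siCTRL cells of each line, with bars for the SE and filled points for an adjusted p under 0.05. HSPE1 lies between -1.44 and -1.15 and HSPA9 between 0.65 and 0.84, with YME1L1 between 0.75 and 0.92.

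Among the proteases, YME1L1, which trims and removes proteins of the inner membrane and the intermembrane space, rose with TG. The LNCaP siCTRL libraries with TG held 416, 404, 426 and 380 CPM, against 246, 218, 192 and 204 CPM without TG. In C4-2B siCTRL cells with TG it held 359, 358, 376 and 372 CPM, against 265, 204, 204 and 194 CPM without TG. There was no overlap, also with the high C4-2B library at 265 CPM. The log2 changes were 0.92 (SE 0.0976, adjusted p = 4.97e-07) in LNCaP and 0.75 (SE 0.107, adjusted p = 3.12e-05) in C4-2B, and in siMOCOS cells 0.85 (adjusted p = 1.35e-06) and 0.80 (adjusted p = 1.67e-05) in the same lines. Knockdown log2 changes of YME1L1 were between -0.06 and 0.02 in the 4 comparisons, and it was not called in any of them.

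LONP1, the Lon protease of the matrix, was called with TG in LNCaP siMOCOS cells. Its libraries there held 293, 261, 235 and 281 CPM with TG, against 180, 193, 210 and 211 CPM without TG, 0.48 on the log2 scale (SE 0.122, adjusted p = 0.00356). In LNCaP siCTRL cells it held 204, 268, 236 and 261 CPM with TG, against 205, 225, 213 and 150 CPM without TG, a log2 change of 0.29 (SE 0.122, adjusted p = 0.0541). The siCTRL groups overlapped and the siMOCOS groups did not. Over all genes, LNCaP siMOCOS groups with and without TG lay apart, in either direction, for 40.7%. The siCTRL change passed the threshold in 14 of 25 alternative settings, among them DESeq2 (adjusted p = 0.0307), limma voom (0.0486), RLE size factors (0.0375) and the siCTRL libraries fitted alone (0.0289). In C4-2B the changes were 0.21 (SE 0.236, adjusted p = 0.512) in siCTRL cells and 0.31 (SE 0.236, adjusted p = 0.309) in siMOCOS cells. C4-2B siCTRL libraries with TG ranged from 138 to 289 CPM. LONP1 is rich in GC (62.9% of its principal transcript), and the correction for GC and length gave 0.45 in LNCaP siCTRL cells (adjusted p = 0.0014), 0.45 in C4-2B siCTRL cells (adjusted p = 0.0115) and 0.56 in C4-2B siMOCOS cells (adjusted p = 0.00267). The LNCaP siMOCOS call was lost in the fit of all 32 libraries (adjusted p = 0.0757) and with knockdown columns 3 and 4 alone (0.32, adjusted p = 0.145).

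CLPP, the proteolytic core that works with the unfoldase CLPX, was called with TG in C4-2B siCTRL cells. Those libraries held 16.6, 15.7, 11.8 and 12.4 CPM with TG, against 14.1, 27.7, 27.3 and 27.3 CPM without TG, a log2 change of -0.78 (SE 0.253, adjusted p = 0.0215). The groups overlapped through 1 library without TG, at 14.1 CPM. GC content was correlated, across 9835 genes, with the deviation of each library from its group mean. That library had the strongest such correlation, at -0.687. CLPP has the highest GC content of the 10 transcripts, at 63.4%. The C4-2B call was lost with the correction for GC and length (-0.32, adjusted p = 0.175) and without siCTRL 2, 3 or 4 or siCTRL with TG 3 or 4 (adjusted p up to 0.0724). In C4-2B siMOCOS cells the change was -0.60 (SE 0.253, adjusted p = 0.0706). It passed the threshold in 6 of 25 settings, DESeq2 among them (adjusted p = 0.0392), and ran from -1.15 with knockdown columns 3 and 4 alone (adjusted p = 0.0102) to 0.00 with columns 1 and 2 alone. In LNCaP the TG change of CLPP was -0.05 (SE 0.255, adjusted p = 0.895) in siCTRL cells and -0.13 (SE 0.25, adjusted p = 0.698) in siMOCOS cells. The difference between the lines in siCTRL cells was not called (0.72, SE 0.371, adjusted p = 0.56). CLPX, chosen after its values were seen, averaged 87.9 CPM in LNCaP siCTRL cells with TG against 114 CPM without TG (log2 -0.37, adjusted p = 0.00228), and 79.8 against 90.4 CPM in C4-2B (log2 -0.18, adjusted p = 0.249).

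HTRA2, known for its release from mitochondria in cell death, was the lowest of the 10 per kilobase, at 3.42 to 6.33 CPM per kilobase in group means. With TG its LNCaP siCTRL libraries held 8.54, 9.57, 8.33 and 5.96 CPM, against 9.28, 9.62, 9.5 and 10.4 CPM without TG. In C4-2B it held 12, 13, 11.9 and 12.1 CPM in siCTRL cells with TG, against 12.1, 13.1, 19.3 and 15.5 CPM without TG. The groups overlapped in both lines, and the log2 changes were -0.26 (SE 0.16, adjusted p = 0.19) in LNCaP and -0.29 (SE 0.144, adjusted p = 0.114) in C4-2B. In siMOCOS cells they were -0.02 (adjusted p = 0.924) in LNCaP and -0.09 (adjusted p = 0.664) in C4-2B.

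Knockdown of MOCOS was called for HSPD1 and for no other of the 10 genes. HSPD1 was the 1 gene that was lower, and 0 were higher, in each of the 4 knockdown comparisons. Without TG, 15.7% of all genes were called in LNCaP (6% higher, 9.73% lower) and 17.2% in C4-2B (9.09% higher, 8.14% lower). With TG, 21.9% were called in LNCaP (11.7% higher, 10.2% lower) and 16.8% in C4-2B (9.21% higher, 7.6% lower). In the higher direction, an unadjusted p under 0.05 was reached by 0 genes in both lines without TG, by GRPEL1 and HTRA2 in LNCaP with TG, and by GRPEL1 in C4-2B with TG. In that direction DESeq2 called GRPEL1 in C4-2B with TG (adjusted p = 0.0268) and 0 genes in the other 3 comparisons, and limma voom called 0 in all 4. In the lower direction HTRA2 in C4-2B without TG stood at -0.41 (adjusted p = 0.0589), and DESeq2 called it (adjusted p = 0.0324). In C4-2B with TG, GRPEL1 held 90.6, 93, 74.2 and 79.3 CPM in siMOCOS cells with TG, against 74.5, 69.1, 62.3 and 64.8 CPM in siCTRL cells with TG (log2 0.35, SE 0.119, adjusted p = 0.0556). The groups overlapped by a narrow margin, 74.2 CPM against 74.5 CPM. The log2 change of HSPA9 was -0.17 (adjusted p = 0.213) without TG and -0.21 (adjusted p = 0.106) with TG in LNCaP, where its siMOCOS libraries lay below its siCTRL libraries without overlap in both treatments. In LNCaP 21.5% of all genes lay apart in this way, in either direction, without TG, and 24.7% with TG. In C4-2B the log2 change of HSPA9 was -0.22 (adjusted p = 0.196) without TG and -0.03 (adjusted p = 0.907) with TG.

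**Figure D4:**
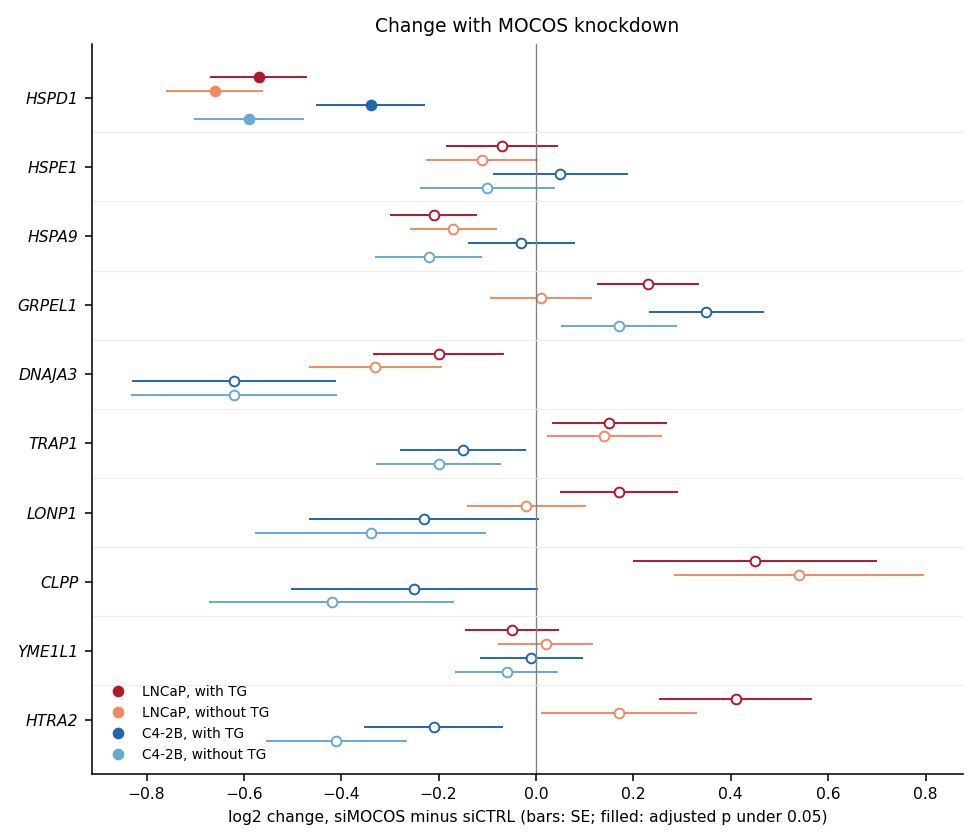
Log2 change with MOCOS knockdown (siMOCOS minus siCTRL) of the 10 genes with and without TG in each line, with bars for the SE and filled points for an adjusted p under 0.05. HSPD1 is the gene with filled points, from -0.66 to -0.34.

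Whether knockdown altered the response to TG was tested as an interaction. By edgeR it was called for 0 of the 10 genes in LNCaP and 0 in C4-2B, where 0.00724% and 0.0708% of all genes were called (in C4-2B 0.0283% higher and 0.0425% lower). No member reached an unadjusted p under 0.05, and DESeq2 and limma voom called 0 as well. The values for HSPD1 were 0.09 (SE 0.14) in LNCaP and 0.25 (SE 0.159) in C4-2B, and for HSPE1 0.04 (SE 0.163) and 0.15 (SE 0.197). For LONP1 they were 0.19 (SE 0.172) and 0.11 (SE 0.334). A p that misses the threshold does not show that the responses were equal.

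The lines differed for 4 of the 10 genes in siCTRL cells without TG, where 41.2% of all 14628 genes were called, 21.1% higher and 20.1% lower in LNCaP. HSPD1 (log2 0.36, LNCaP minus C4-2B, adjusted p = 0.00548) and GRPEL1 (0.57, adjusted p = 9.37e-05) were higher in LNCaP. CLPP (-1.28, SE 0.265, adjusted p = 0.00027) and HTRA2 (-0.63, SE 0.145, adjusted p = 0.000907) were lower in LNCaP. CLPP held 9.81, 13.1, 10.1 and 6.33 CPM in LNCaP siCTRL cells, against 14.1, 27.7, 27.3 and 27.3 CPM in C4-2B siCTRL cells. The lines did not overlap for any of these 4 genes, as was so for 38.8% of all 14628 genes. The correction for GC and length took HSPD1 to 0.19 (adjusted p = 0.0962) and HTRA2 to -0.26 (adjusted p = 0.159), and left GRPEL1 and CLPP called. It also brought LONP1 (0.44, adjusted p = 0.00423) and YME1L1 (-0.24, adjusted p = 0.00779) past the threshold. The difference between the lines was called for 0 of the 10 genes in the TG response, against 0.848% of all genes (0.417% higher, 0.431% lower). It was called for 0 in the knockdown response without TG, against 0.157% (0.0205% higher, 0.137% lower). For the TG response an unadjusted p under 0.05 was reached by 0 members. For the knockdown response it was reached by CLPP, TRAP1 and HTRA2, and DESeq2 and limma voom called 0 in both.

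The order of the 8 group means differed between genes. HSPD1 was highest in LNCaP siCTRL cells (1720 ± 120 CPM) and lowest in C4-2B siMOCOS cells (893 ± 92.9 CPM), and all 4 siCTRL groups stood above all 4 siMOCOS groups. For HSPE1 the 4 groups without TG (556 to 648 CPM) stood above the 4 groups with TG (222 to 245 CPM), and within each set neighbouring means differed by less than the larger of their SDs. For HSPA9 and YME1L1 the 4 groups with TG stood on top. YME1L1 ranged from 356 to 407 CPM in group means with TG and from 209 to 221 CPM without TG. CLPP was highest in C4-2B siCTRL cells (24.1 ± 6.66 CPM), and the other 7 groups ran from 9.54 to 18.1 CPM with SDs of 2.39 to 5.36 CPM. Over the 8 group means, among 10486 genes of at least 5 CPM, the log2 levels most like those of HSPD1 were those of SLC39A9 (Pearson r = 0.988), CLDND1 (0.985) and STAMBP (0.98). HSPE1 stood at 0.162. For LONP1 they were CCRN4L (0.969), RRBP1 (0.967) and AKIRIN2 (0.965). These are likenesses over 8 points that share the treatments and depth.

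Other genes of protein quality control were counted from lists, for siCTRL cells with TG against siCTRL cells without TG. Of 14 ER chaperones tested, 11 were higher in LNCaP and 9 in C4-2B, and the others were not called. HSPA5 (BiP), the ER HSP70, averaged 7710 CPM with TG against 2630 CPM without TG in LNCaP (log2 1.55, adjusted p = 2.99e-08) and 5190 against 2500 CPM in C4-2B (log2 1.05, adjusted p = 8.59e-05). Of 14 cytosolic chaperones tested, 9 were lower and 1 higher in LNCaP, and 8 were lower in C4-2B with the other 6 not called. HSPA8, the constitutive cytosolic HSP70, averaged 1370 CPM with TG against 4600 CPM without TG in LNCaP (log2 -1.74, adjusted p = 4.12e-09) and 825 against 3520 CPM in C4-2B (log2 -2.10, adjusted p = 1.08e-08). The 3 HSP70s of the 3 compartments thus took different courses, with HSPA5 and mitochondrial HSPA9 higher and HSPA8 lower.

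Other mitochondrial genes were counted in the same comparison, in which 25.1% of all genes were lower and 24.6% higher in LNCaP, and 19.3% lower and 21.2% higher in C4-2B. Of 24 import genes tested, 10 were lower and 1 higher in LNCaP, and 10 were lower and 2 higher in C4-2B. TIMM21, a subunit of the inner membrane translocase, averaged 18.3 CPM with TG against 55.9 CPM without TG in LNCaP (adjusted p = 7.01e-08) and 25 against 70.5 CPM in C4-2B (adjusted p = 3.06e-06). Of 15 other proteases and peptidases tested, 8 were lower and 2 higher in LNCaP, and 5 were lower and 1 higher in C4-2B. PMPCA, a subunit of the presequence-cleaving peptidase, changed by -1.28 (adjusted p = 9.66e-09) in LNCaP and -1.15 (adjusted p = 4.14e-05) in C4-2B. SPG7, a subunit of the matrix-facing m-AAA protease, changed by -1.12 (adjusted p = 4.19e-06) and -0.82 (adjusted p = 0.000208). Of the other chaperones and assembly factors, 6 were lower and 2 higher of 16 in LNCaP, and 7 were lower and 3 higher of 15 in C4-2B. Prohibitin, listed as PHB, changed by -1.41 (adjusted p = 4.11e-08) in LNCaP and -1.08 (adjusted p = 4.14e-05) in C4-2B. The list medians in siCTRL cells were -0.31 and -0.33 for import, -0.28 and -0.22 for proteases, and -0.13 and -0.33 for chaperones in LNCaP and C4-2B, beside -0.04 and -0.01 over all genes.

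**Figure D5:**
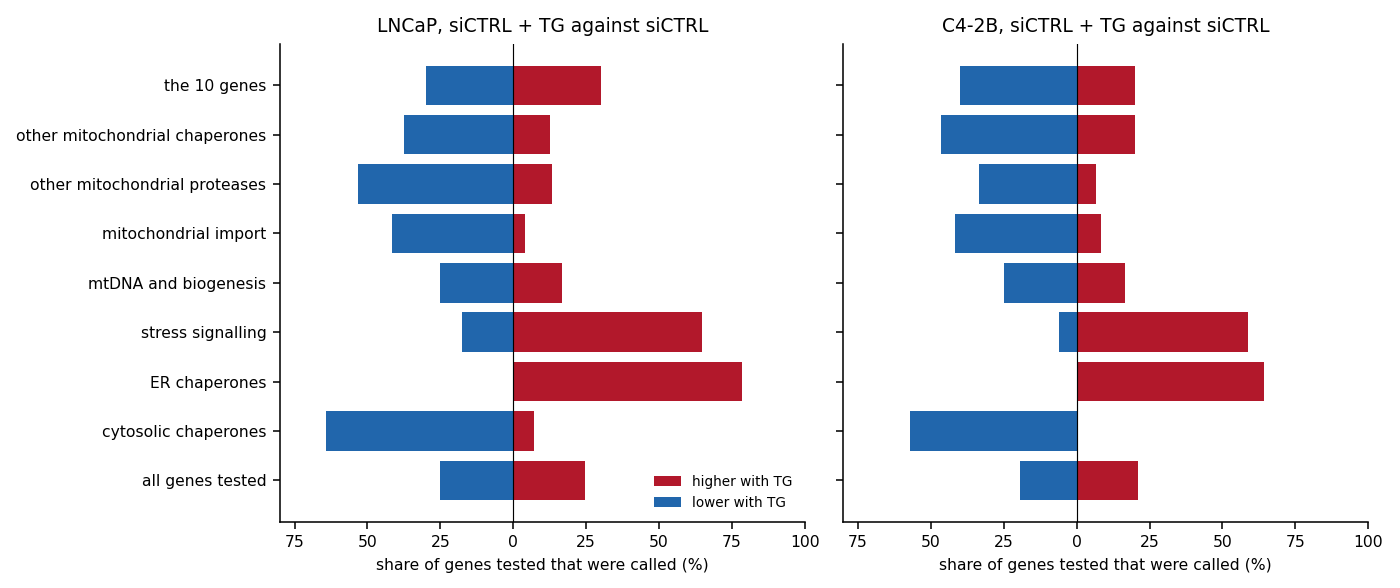
Share of the tested genes of each list called higher (right of 0) or lower (left of 0) in siCTRL cells with TG against siCTRL cells without TG, in LNCaP and C4-2B, with all genes tested in the bottom row. The ER list lies to the right, with 11 of 14 in LNCaP and 9 of 14 in C4-2B, and the cytosolic list lies mostly to the left.

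Of 17 genes tested for stress signalling to and from mitochondria, a list that holds targets of ATF4, 11 were higher and 3 lower in LNCaP and 10 were higher and 1 lower in C4-2B. DDIT3 (CHOP) averaged 286 CPM with TG against 29 CPM without TG in LNCaP siCTRL cells (log2 3.31, adjusted p = 3.02e-10), and TRIB3 averaged 130 against 27.1 CPM in C4-2B (log2 2.26, adjusted p = 7.03e-09). ATF5, a transcription factor linked to the mitochondrial response in mammalian cells, was chosen after its values were seen. It averaged 43.7 CPM with TG against 51 CPM without TG in LNCaP (log2 -0.22, adjusted p = 0.273) and 32 against 54.9 CPM in C4-2B (log2 -0.78, adjusted p = 0.000294). Of 12 genes for mitochondrial DNA upkeep and biogenesis tested, 2 were higher and 3 lower in each line. NRF1, the factor whose letters are printed above, averaged 118 CPM with TG against 21.9 CPM without TG in LNCaP (log2 2.44, adjusted p = 1.88e-09) and 52.7 against 20.9 CPM in C4-2B (log2 1.33, adjusted p = 6.06e-07). Of the 4 genes that hold those letters, HSPE1 was lower with TG in both lines and HSPD1 was not called. DNAJA3 was higher in LNCaP siCTRL cells and not called in C4-2B siCTRL cells (adjusted p = 0.522). LONP1 was not called in siCTRL cells of LNCaP (adjusted p = 0.0541) or C4-2B (adjusted p = 0.512). In siMOCOS cells LONP1 was higher in LNCaP (adjusted p = 0.00356) and not called in C4-2B (adjusted p = 0.309).

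With knockdown and no TG, 2 of the 17 stress signalling genes were lower in LNCaP, where 9.73% of all genes were, and 5 in C4-2B, where 8.14% were. TRIB3, a target of ATF4 and CHOP, was at 16.3 CPM in LNCaP siMOCOS cells against 25.4 CPM in siCTRL cells (log2 -0.67, adjusted p = 0.00193), and at 14.2 against 27.1 CPM in C4-2B (log2 -0.95, adjusted p = 0.000137). HSPA5 was lower in LNCaP siMOCOS cells (1510 CPM, against 2630 CPM in siCTRL cells, log2 -0.81, adjusted p = 0.000319) and in C4-2B (1730 against 2500 CPM, log2 -0.54, adjusted p = 0.0295). CLPB, a disaggregase of the intermembrane space, was lower in LNCaP (28.8 against 43 CPM, log2 -0.61, adjusted p = 0.00478) and in C4-2B (36.2 against 63.9 CPM, log2 -0.83, adjusted p = 0.00208). TIMM9, a small import chaperone of that space, was lower as well (log2 -0.40, adjusted p = 0.0147, and log2 -0.54, adjusted p = 0.0192, in the same lines). Of 24 import genes 1 was lower in LNCaP and 2 in C4-2B, which is below the share of all genes in LNCaP and near it in C4-2B.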

How the data were processed

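The authors deposited expected counts, estimated per gene and not always whole; the table's name calls them length-scaled, and their totals differ between libraries. Per the submitters' processing notes, hg38, Salmon 1.5.2, STAR 2.6.1d, FastQC 0.11.9, Trim Galore 0.6.7 and cutadapt 3.4 were used. Which annotation was used, and whether counting used the strand, is not given in the sources used here, though the libraries were strand-specific, per the labels' protocols. All 32 value columns were used. Values were rounded, since 100% of those above 0 were not whole within 1e-06.

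Each line was fitted with edgeR 4.0.16 (R 4.3.3): filterByExpr, TMM factors, 4 groups, quasi-likelihood F-test, 12 residual degrees of freedom, and Benjamini-Hochberg over all genes tested, with a call at 0.05. The biological coefficient of variation was 0.174 in LNCaP and 0.219 in C4-2B. Line differences came from 1 fit of 32 libraries with 24 residual degrees of freedom. Levels in CPM use TMM factors over all 32 libraries. The SE is the unshrunken log2 change over the square root of F. Intervals cover the spread between libraries. The procedure was tested on simulated counts with the same spread for every gene and no library trends. Such counts are simpler than these data, so they do not show how often calls are wrong here.

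The members and lists were chosen with earlier results of these data known. From each other list the named genes are among the 3 called ones with the smallest adjusted p in a comparison; those outside this rule are marked in the text. Gene lengths, GC content and overlaps come from GENCODE v29 (GRCh38), and promoter sequences from RefSeq. DESeq2 1.42.0 and limma voom 3.58.1 were alternatives. No pairing of siCTRL libraries by replicate number is stated, and the main fits used none. The correlation of same-numbered deviations ran from -0.613 to 0.297 in C4-2B and from -0.235 to 0.38 in LNCaP. Such deviations also correlated with GC content, from -0.687 to 0.591 per library, so they cannot decide whether cultures were paired.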

Additional observations from a re-analysis of the deposited data

Results flagged for a closer look

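In 5 of 80 sets of 4 libraries (10 genes in 8 groups), 1 library stood apart from the other 3 by Dixon's criterion, which flags about 1 set in 20 by chance. HSPA9 was at 630 CPM in knockdown column 2 of LNCaP siMOCOS cells, against 777 to 796 CPM in the other 3 libraries. CLPP was at 14.1 CPM in C4-2B siCTRL replicate 1, against 27.3 to 27.7 CPM. YME1L1 was at 265 CPM in that same library, against 194 to 204 CPM, and at 449 CPM in knockdown column 3 of LNCaP siMOCOS cells with TG, against 360 to 372 CPM. GRPEL1 was at 76.1 CPM in C4-2B siCTRL replicate 2, against 99.5 to 101 CPM. C4-2B siCTRL replicate 1 also had the strongest correlation of deviation from the group mean with GC content among the 32 libraries. Without it, the TG comparison of C4-2B siCTRL cells called 7 of the 10 genes, where HTRA2 joined (log2 -0.39, adjusted p = 0.0425).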

How the results depend on the processing

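Of 3660 recomputed changes of single genes, 3519 kept their side of the threshold, 70 lost a call and 71 gained one. Where the main or the recomputed change was called, 0 turned round. Changes called in neither were not checked for sign, and some did turn round. LONP1 with knockdown and TG in LNCaP, at 0.17, ran as low as -0.23. Calls held under every setting for HSPE1, HSPA9 and YME1L1 with TG in all 4 comparisons, for GRPEL1 with TG in siCTRL cells and DNAJA3 with TG in LNCaP, and for HSPD1 with knockdown without TG in both lines and with TG in LNCaP. They also held for CLPP and GRPEL1 in the line difference of siCTRL cells without TG.

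For TG in C4-2B siMOCOS cells, 3 of the 10 genes were called without a filter on low counts and with knockdown columns 1 and 2 only, against 5. For knockdown in C4-2B without TG, against 1, the count was 2 with RLE size factors, limma voom or the GC and length correction, and 3 with DESeq2, the fit of 32 libraries or columns 1 and 2. With TG, against 1, it was 2 with RLE or voom, 3 with DESeq2, the correction, the fit of 32 or columns 1 and 2, and 0 with no filter or columns 3 and 4. For knockdown in LNCaP, against 1, columns 1 and 2 gave 2 without TG and 5 with TG, and the correction gave 2 with TG. Over all genes, columns 1 and 2 gave 4414 and 4431 knockdown calls in C4-2B without and with TG, against 2434 and 2375, and 3368 and 5524 in LNCaP, against 2173 and 3025.

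Interaction calls over all genes were 10 in C4-2B: 6 with no filter or voom, 85 with DESeq2, 73 with the correction, 44 with the fit of 32, 212 with columns 1 and 2 and 1 with columns 3 and 4. In LNCaP they were 1: 2 with upper-quartile factors, 55 with DESeq2, 23 with the correction, 328 with columns 1 and 2 and 19 with columns 3 and 4. Line differences in the TG response were 124: 78 with no filter, 188 with DESeq2 and 262 with the correction. Those in the knockdown response were 23: 12 with no filter, 99 with DESeq2, 87 with the correction, 204 with columns 1 and 2 and 41 with columns 3 and 4. The cause was not tested.

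Leaving out 1 library at a time, the member counts ran from 3 to 6 for TG in C4-2B siMOCOS cells, from 1 to 2 and 0 to 2 for knockdown in C4-2B without and with TG, and from 1 to 2 and 1 to 3 in LNCaP. Over all genes the ranges were 1392 to 2212 and 1925 to 3454 for knockdown in LNCaP without and with TG, 1 to 11 and 0 to 1 for interactions in C4-2B and LNCaP, and 77 to 128 and 11 to 35 for line differences in the TG and knockdown responses.

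With the replicate block in the 8 siCTRL libraries, TG called 6 of the 10 genes in LNCaP, where TRAP1 was lost (adjusted p = 0.0813) and LONP1 gained (0.0254). It called 4 in C4-2B, where TRAP1 (0.0719) and CLPP (0.0611) were lost. Over all genes it called 7452 in LNCaP and 4695 in C4-2B. The numbers are shared without a stated pairing. CLPP and HTRA2, the least abundant of the 10 genes, rest on the fewest counts.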
